A study of Arabidopsis thaliana with 12 samples.

Results

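GH9B8 (AT2G32990), GH9B11 (AT2G44560), GH9B12 (AT2G44570) and GH9B16 (AT4G38990), all of the glycosyl hydrolase 9B (GH9B) subclass, were followed on 12 arrays of Arabidopsis thaliana RNA. They are the 4 genes of the subclass that the platform annotation pairs with a probe of their own, among 692 probes paired with 1 gene, for 691 genes, and 3439 probes in all. The arrays were hybridised with total RNA of wild-type plants of the Columbia 0 ecotype. One group of plants, called pStau, had water for 4 h and then staurosporine for 4 h at a labelled dose of 25 mM, a unit that was not checked against another source. The control plants, called H2O, were kept in water for 8 h, so both groups share the water treatment of the opening hours. Staurosporine inhibits many protein kinases. Each group has 6 arrays, but no label ties them to separate plants, so the p-values reflect only how far these arrays scatter, which can be technical.

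Glycosyl hydrolases of family 9 are the plant endo-1,4-beta-glucanases, often called cellulases, which cut within chains of beta-1,4-linked glucose. Subclass A enzymes are anchored in the membrane, and GH9A1, known as KORRIGAN, takes part in cellulose synthesis. Subclass B enzymes are secreted into the wall and have a catalytic domain without a cellulose-binding module, and subclass C enzymes carry such a module. Members of the family act in cell expansion, organ abscission and other remodelling of the wall. In the RefSeq gene order GH9B9, GH9B10, GH9B11 and GH9B12 lie side by side with 0 protein-coding genes between neighbours, and so do GH9B16, GH9B17 and GH9B18. GH9B8 lies apart from them.

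All 4 GH9B genes were lower in pStau than in H2O. GH9B16, GH9B11 and GH9B12 fell by 0.68, 0.61 and 0.53 on the log2 scale, and GH9B8 was listed at 0 on every pStau array and above 0 on every H2O array. Each passed in limma at an adjusted p under 0.05 over all 3256 probes tested, but GH9B11 did not with the replicate number as a block (limma adjusted p = 0.113), and of the 4 genes only GH9B16 passed with consecutively numbered arrays as a random block. With its pStau values at 0, GH9B8 could differ in 1 direction only. In that test 35.3% of probes passed in either direction and 18.8% passed and were lower in pStau. The median change of the 3 genes above 0 on all arrays was -0.61, against -0.0041 over all probes. Normalization holds the latter near 0. Before normalization the median over all probes was -0.80, and GH9B11, GH9B12 and GH9B16 changed by -1.37, -1.39 and -1.32. Limma fits a linear model to each probe with its variance moderated across probes. Log2 changes here are pStau minus H2O on quantile-normalized intensities, in which zeros and the lowest values were set to a floor of 0.0167. The deposited values, which run from 0 to 100 and were taken as linear, are called intensities. Whether fewer cells of a type or less RNA per cell gave a lower value cannot be told apart in bulk RNA. With each array set averaged to 1 value, 3 of 3256 probes passed in limma, and the adjusted p of the 4 genes was 0.144 to 0.264.

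The arrays themselves differed between the groups. Array medians were 0.169 to 0.392 in pStau and 0.405 to 0.485 in H2O, and 12.3% to 17.3% of values were exactly 0 in pStau, against 11.5% to 13.1% in H2O. In the deposited intensities the median log2 change over the tested probes was -0.80, so lower intensities were common in pStau. Consecutively numbered arrays of a group (1 with 2, 3 with 4, 5 with 6) were alike, with an estimated correlation of 0.71, and are called an array set. A fit with array sets as a random block lets such arrays share part of their variation. The part of these differences between arrays in the results on single genes was not tested. Of 22 marker genes of mesophyll, guard cells, phloem, roots and xylem fibres, 0 had a probe of their own, so the tissue was not checked against markers.

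GH9B16 kept its call in 25 of 28 alternative settings in limma, the most of the 4 genes. Its deposited intensity was lowest at 0.195, had a median of 0.298 and was highest at 0.725 on the pStau arrays, against 0.817, 0.859 and 0.931 on the H2O arrays. The 6 H2O arrays lay close together, all pStau arrays lay below them, and pStau arrays 1 and 2 were nearest to them. The mean intensity was 0.397 ± 0.230 in pStau and 0.867 ± 0.0486 in H2O (SD, n = 6 each), a 2.18-fold lower mean in pStau. Within an array, the GH9B16 value exceeded 52.9% to 72.7% of all probe values in pStau and 73.3% to 79.3% in H2O. After normalization it was 1.60-fold lower in pStau (limma adjusted p = 0.00574, log2 change -0.68 with an SE of 0.15, n = 6 each), and its normalized values did not overlap between the groups, which 9.28% of tested probes did in this direction. The adjusted p of GH9B16 was 0.0380 in limma with array sets as a random block, a fit in which 8.11% of probes passed and were lower in pStau. Its call ended without arrays 3 and 4 of both groups (log2 change -0.48, limma adjusted p = 0.0893), and without arrays 5 and 6 (-0.61, limma adjusted p = 0.0895).

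GH9B12 was lower on every pStau array than on any H2O array in the deposited intensities. Its deposited intensity ran from 0.134 through a median of 0.183 to 0.233 in pStau, against 0.363, 0.470 and 0.623 in H2O. The groups did not overlap on this scale, with means of 0.181 ± 0.0397 in pStau and 0.474 ± 0.0980 in H2O (SD, n = 6 each). That is a 2.62-fold lower mean in pStau. The SD was smaller in pStau on this scale, but on the normalized log2 scale it was 0.30 in pStau and 0.24 in H2O. The GH9B12 value exceeded 30.1% to 47.3% of the probe values on a pStau array and 45.1% to 62.0% on an H2O array. These ranks overlapped. After normalization GH9B12 was 1.45-fold lower (limma adjusted p = 0.0221, log2 change -0.53 with an SE of 0.16, n = 6 each), and the normalized values overlapped. The random block for array sets ended the call of GH9B12 (limma adjusted p = 0.0914), as did leaving out arrays 1 and 2 of both groups (log2 change -0.38, limma adjusted p = 0.104) or arrays 5 and 6 (-0.50, limma adjusted p = 0.0882).

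GH9B11, the neighbour of GH9B12, had the least settled fall. Its deposited intensity ran from 0.147 through a median of 0.189 to 0.497 in pStau, against 0.471, 0.603 and 0.924 in H2O. The groups overlapped, because pStau arrays 1 and 2 exceeded H2O arrays 3 and 4. The mean was 0.281 ± 0.164 in pStau and 0.661 ± 0.196 in H2O (SD, n = 6 each), and after normalization GH9B11 was 1.52-fold lower in pStau (limma adjusted p = 0.0427, log2 change -0.61 with an SE of 0.21, n = 6 each). With the replicate number as a block, where 20.9% of probes passed and were lower, the limma adjusted p of GH9B11 was 0.113, and with array sets as a random block 0.0945. Leaving out any 1 of 7 single arrays ended its call, and leaving out arrays 5 and 6 of both groups brought the log2 change to -0.16 (limma adjusted p = 0.363).

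**Figure D1:**
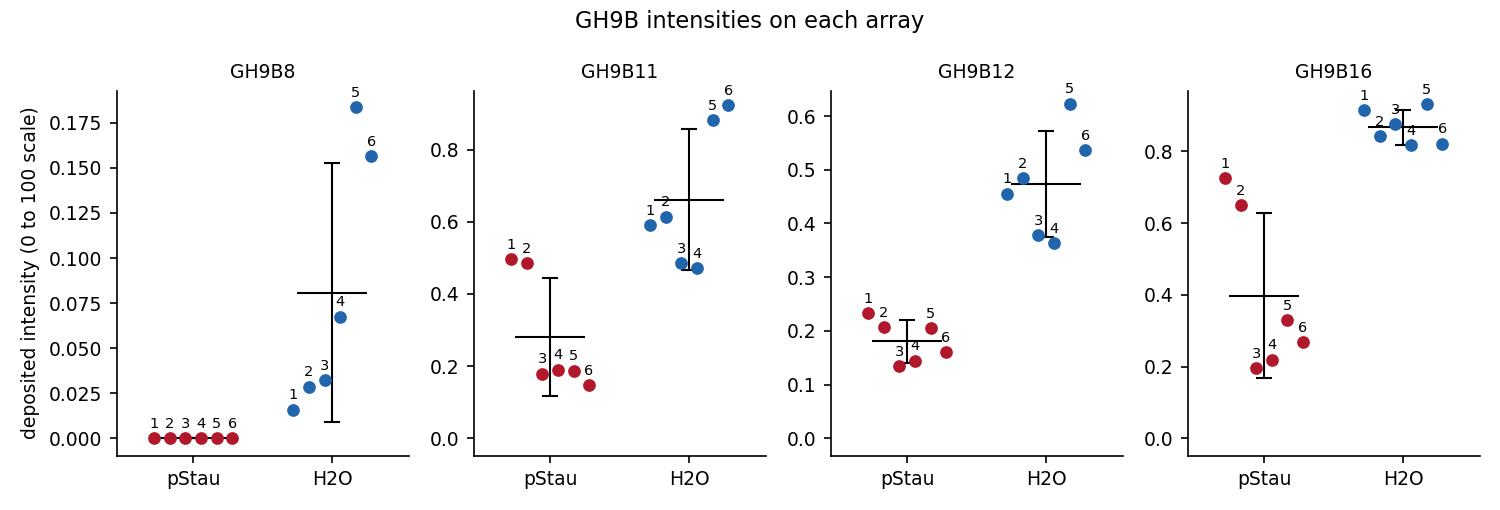
Deposited intensity (vertical axis, scale of 0 to 100, a separate range in each panel) of the 4 GH9B genes on each of 6 pStau arrays (red, left) and 6 H2O arrays (blue, right), with the array number above each point and the mean ± SD as black bars. GH9B8 is at 0 on all 6 pStau arrays, and GH9B11 is the panel in which pStau and H2O arrays overlap.

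GH9B8 was the member with values of 0. Its value was 0 on each of the 6 pStau arrays. On the H2O arrays its deposited intensity was 0.0157 at the lowest, 0.0499 at the median and 0.184 at the highest. H2O arrays 5 and 6 were the highest and H2O array 1 the lowest. The probe was dim in H2O too, where its value exceeded 13.1% to 21.5% of all probe values on an array. Many of those values were zeros, which made up 11.5% to 13.1% of an H2O array. On H2O array 1 the GH9B8 value exceeded 13.1% of values, and 12.3% were exactly 0. Of 3439 probes, 2 or 0.0582% were at 0 on all pStau arrays and above 0 on all H2O arrays, GH9B8 and AT5G15280, and 0 probes showed the opposite pattern. Each pStau array listed between 39 and 110 probes above 0 and below the lowest H2O value of GH9B8. No fold is given for GH9B8, since its pStau values have no level above 0. Its limma adjusted p was 0.0216 with zeros set to the floor (n = 6 per group), and the exact two-sided permutation test on the deposited intensities gave p = 0.00216, the smallest that 924 splits of 6 against 6 arrays can give. Normalized, all pStau arrays lay at the floor, as did H2O array 1, so the limma p takes in no spread within pStau. Its call depended on the low end of the scale: with the floor at the 5th percentile the limma adjusted p was 0.252. It was 0.0811 with array sets as a random block, 0.135 without arrays 3 and 4 of both groups and 0.134 without arrays 5 and 6.

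On the deposited intensities, 2 of the 3 genes above 0 on all arrays had groups that did not overlap, where 20.2% of tested probes did not overlap in this direction. In the exact two-sided permutation test GH9B12 and GH9B16 also reached the smallest possible p, 0.00216, and GH9B11 had p = 0.0130 (n = 6 per group). These p-values are not adjusted over probes and take in the lower level of the pStau arrays as a whole. For groups that do not overlap, this test always gives the smallest possible p. Its splits also treat the arrays of an array set as independent.

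**Figure D2:**
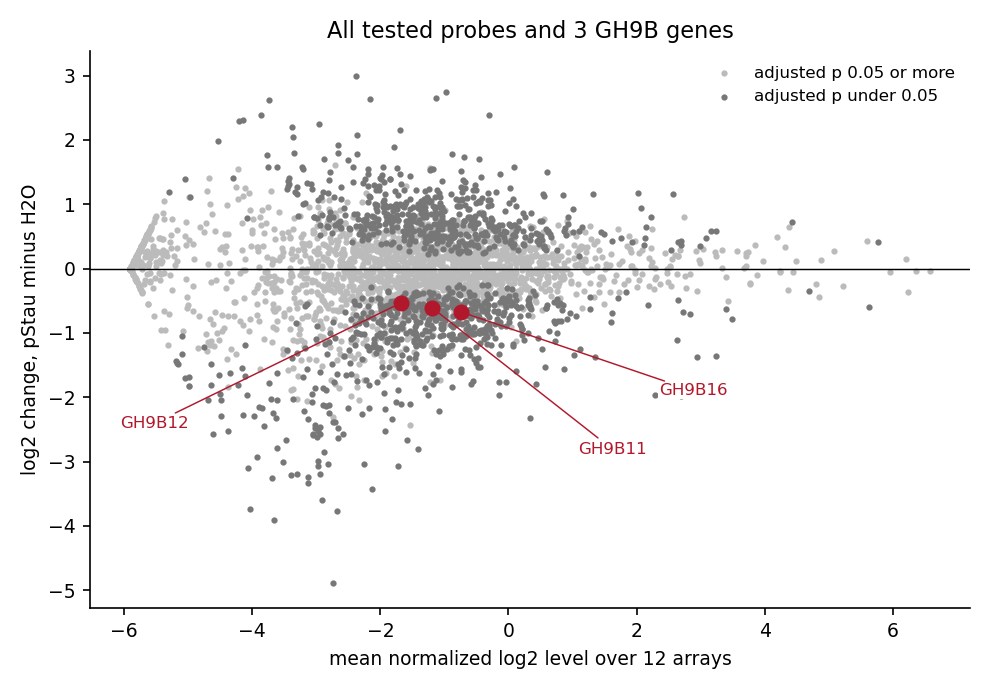
Log2 change, pStau minus H2O (vertical axis), against the mean normalized log2 level over 12 arrays (horizontal axis) for the 3256 probes tested, with GH9B11, GH9B12 and GH9B16 in red. Dark points passed at an adjusted p under 0.05, and the 3 genes lie at changes of -0.61, -0.53 and -0.68, among many called probes of like size. GH9B8 is not marked, because its change depends on the floor.

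The direction was the same in each scaling tried. As deposited, GH9B11, GH9B12 and GH9B16 changed by -1.37, -1.39 and -1.32 on the log2 scale, which is -0.57, -0.59 and -0.51 when the median change over all tested probes is taken off. With arrays centred on their median the changes of GH9B11, GH9B12 and GH9B16 were -0.50, -0.53 and -0.45, and with cyclic loess -0.58, -0.49 and -0.70. Centring on the median ended the call of GH9B11 (limma adjusted p = 0.0685) and left GH9B12 and GH9B16 past the threshold. In that scaling 15% of probes were called lower in pStau, against 46.7% as deposited.

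**Figure D3:**
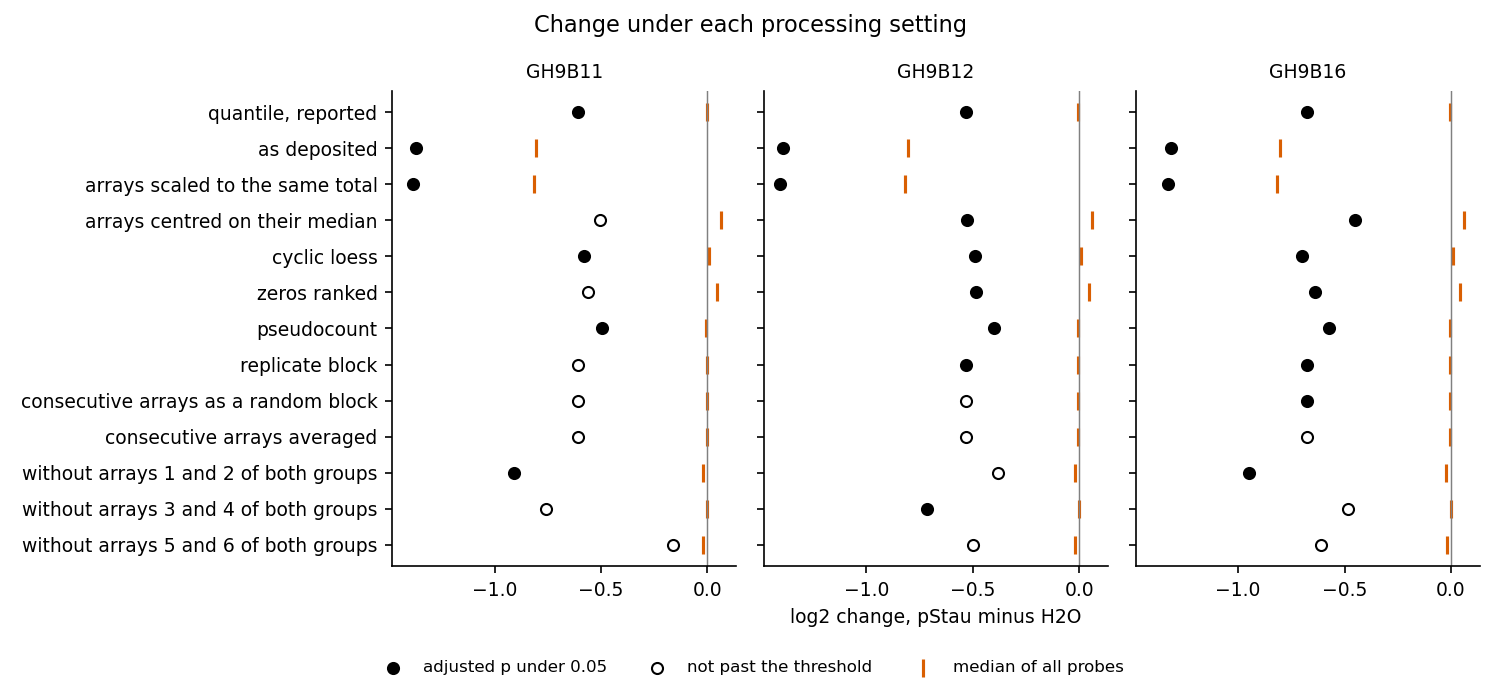
Log2 change, pStau minus H2O (horizontal axis), of GH9B11, GH9B12 and GH9B16 under 13 processing settings (rows), with filled points at an adjusted p under 0.05, open points otherwise and an orange tick at the median change of all probes. Each point lies left of its tick, and open points are most frequent for GH9B11.

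GH9B11, GH9B12 and GH9B16 were lower in pStau in each of the 3 array sets, which held for 27.9% of tested probes, but the sets did not weigh alike. GH9B11 changed by -0.056 between arrays 1 and 2 of the groups, by -0.27 between arrays 3 and 4 and by -1.50 between arrays 5 and 6. GH9B12 changed by -0.86, -0.13 and -0.61 in the same order of sets, and GH9B16 by -0.20, -1.04 and -0.79. Thus a different set gave the largest change of each of these 3 genes, and the neighbours GH9B11 and GH9B12 did not move in step across sets. The spread of all probes (SD) was 0.59, 1.04 and 1.11 in the 3 sets. Over 12 arrays the normalized levels of GH9B11 and GH9B12 correlated with r = 0.53, and with r = 0.097 once each group's mean was removed. That is a description over arrays that share their set.

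**Figure D4:**
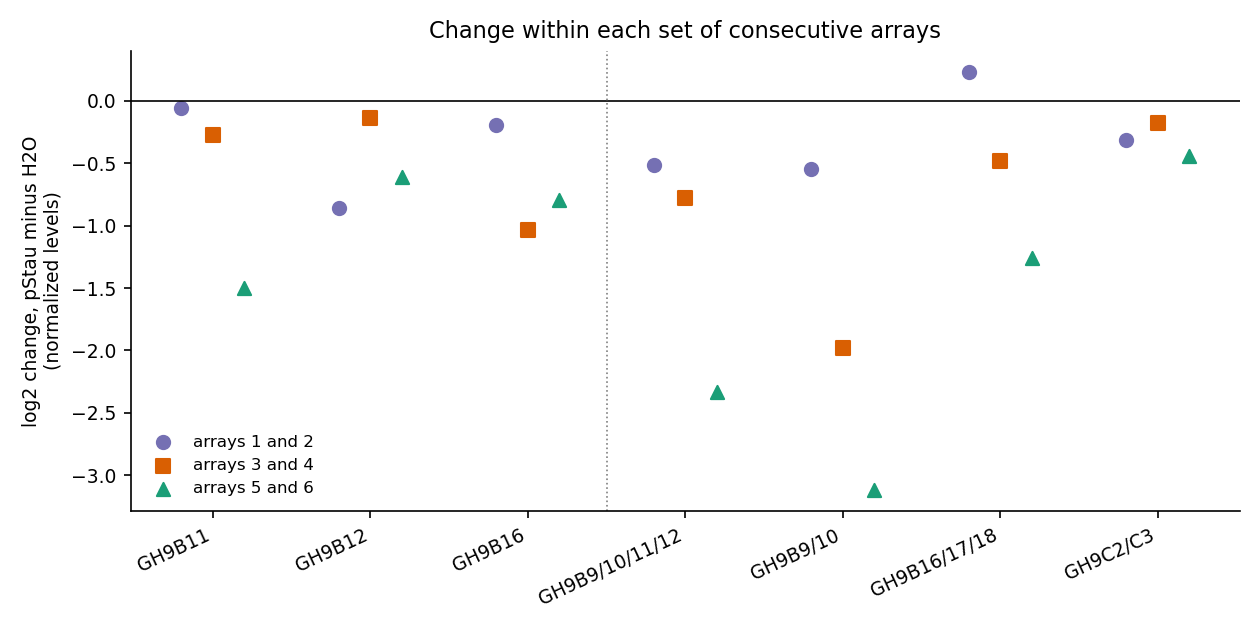
Log2 change of normalized levels, pStau minus H2O (vertical axis), within arrays 1 and 2 (circles), 3 and 4 (squares) and 5 and 6 (triangles) for 3 GH9B genes (left of the dotted line) and 4 probes shared by several GH9 genes (right). GH9B11 lies at -0.056 in the first set and -1.50 in the last, and the GH9B9/10 probe reaches -3.12 in arrays 5 and 6.

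To ask whether one gene fell more than another, the log2 ratio of 2 genes within an array was compared between pStau and H2O, in a test added after the data were seen. The ratio of GH9B12 to GH9B11 averaged -0.48 ± 0.58 in pStau and -0.46 ± 0.17 in H2O (SD, n = 6 each). The means differed by -0.024, and the rank-sum estimate of the shift was -0.029, with an exact 95% interval of -0.73 to 0.50. For GH9B12 to GH9B16 the means differed by -0.079, while the rank-sum shift was 0.025 (interval -0.84 to 0.49). For GH9B16 to GH9B11 the means differed by 0.055 and the rank-sum shift was 0.032 (interval -0.43 to 0.59). None of the 3 pairs compared passed (exact permutation tests, lowest p = 0.740, adjusted p = 0.922 for each), so a difference in the size of the falls was not detected. The intervals reach -0.84 in log2 ratio. These tests and intervals treat the arrays of an array set as independent, although their estimated correlation was 0.71, so the intervals may be too narrow. The ratio of GH9B12 to GH9B11 shifted by -0.80 between arrays 1 and 2, by -0.039 between arrays 3 and 4 and by 0.77 between arrays 5 and 6.

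Further probes of the family are paired with several genes each, so their values belong to no single gene. The annotation holds 7 of them, which cover another 8 of the 25 genes of the GH9 family, 6 of them in subclass B. Of the 18 genes of subclass B, 8 had neither kind of probe. How far the single-gene probes also bind neighbouring genes was not tested. Of the 7 shared probes, 3 fell, 0 rose and 4 did not pass, where 17.9% of the tested probes paired with several genes passed and were lower.

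The probe paired with GH9B17, GH9B18 and AT3G42155 had the clearest difference. It was listed at 0 on 5 pStau arrays and at 0.00791 on pStau array 2, while its H2O intensities ran from 0.219 through a median of 0.285 to 0.345. The groups stood far apart in the deposited intensities, and the limma adjusted p was 2.84e-09 (n = 6 per group). Normalized, all pStau values of the probe lay at the floor, so this p takes in no spread within pStau and its size depends on the floor. With the floor at the 5th percentile the limma adjusted p was 3.69e-06. The call held in every setting in which the probe was tested, including the average over consecutive arrays (limma adjusted p = 0.00534). No fold is given for a probe at 0. Of all probes, 0.262% were at 0 on at least 5 pStau arrays and above 0 on all H2O arrays.

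The probe paired with GH9B16, GH9B17 and GH9B18 did not pass (limma adjusted p = 0.110, log2 change -0.50 with an SE of 0.23, n = 6 each). Its deposited intensity had a range of 0.0921 to 0.463 in pStau and 0.426 to 0.611 in H2O, with an overlap at pStau arrays 1 and 2. It passed at -1.33 as deposited (limma adjusted p = 0.0119), at -1.35 once all arrays had an equal total (0.00845) and at -0.88 when arrays 1 and 2 were left out (0.0267). Leaving out arrays 5 and 6 brought it to -0.13 (limma adjusted p = 0.631), leaving out pStau array 6 alone brought it to -0.32, and between arrays 1 and 2 it was higher in pStau, by 0.23. The GH9B16 probe and both probes that take in its neighbours thus had lower means in pStau, with unequal outcomes in the test.

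In the other gene cluster, the probe paired with GH9B9 and GH9B10 fell by 1.88 on the log2 scale (SE 0.43, n = 6 each, limma adjusted p = 0.00735). Its deposited intensity ran from 0.00757 through 0.0259 to 0.206 in pStau, against 0.249, 0.342 and 0.444 in H2O, with no overlap. The probe paired with GH9B9, GH9B10, GH9B11 and GH9B12 fell by 1.21 (SE 0.27, n = 6 each, limma adjusted p = 0.00703), with intensities of 0.0410 to 0.247 in pStau and 0.271 to 0.669 in H2O. For both probes the largest change lay between arrays 5 and 6, at -3.12 for GH9B9 and GH9B10 and -2.33 for the probe of all 4 genes. The size of the fall of GH9B9 and GH9B10 depended on the low end of the scale, at -1.02 with a pseudocount of 0.1 and -3.18 as deposited, and the probe of all 4 genes changed by -2.25 as deposited. The call of the probe of GH9B9 and GH9B10 ended with array sets as a random block (limma adjusted p = 0.0750), with each set averaged (0.129), without arrays 3 and 4 of both groups (0.0935) and without arrays 5 and 6 (0.0547). That of the probe of all 4 genes ended with each set averaged (limma adjusted p = 0.146) and without arrays 5 and 6 (log2 change -0.66, limma adjusted p = 0.0556).

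The other shared probes did not pass. GH9C2 and GH9C3, of subclass C, share a probe that changed by -0.31 (SE 0.13, n = 6 each, limma adjusted p = 0.0826). As deposited that probe passed at -1.14 (limma adjusted p = 0.00347), and its intensities of 0.132 to 0.356 in pStau lay below the 0.408 to 0.577 of H2O. GH9B14 and GH9B15 share 2 probes, with changes of 0.60 (SE 0.51, limma adjusted p = 0.402) and 0.62 (SE 0.66, limma adjusted p = 0.500), which were -0.31 and -0.27 as deposited. Without H2O array 5 alone the changes were 0.18 and 0.079. The second of these probes passed with the replicate number as a block (limma adjusted p = 0.0437), but not with array sets averaged (0.552) or as a random block (0.808). Their intensities overlapped widely, from 0.128 to 0.623 in pStau against 0.112 to 0.636 in H2O for the first probe, and from 0.0719 to 0.933 in pStau against 0.0956 to 0.714 in H2O for the second.

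**Figure D5:**
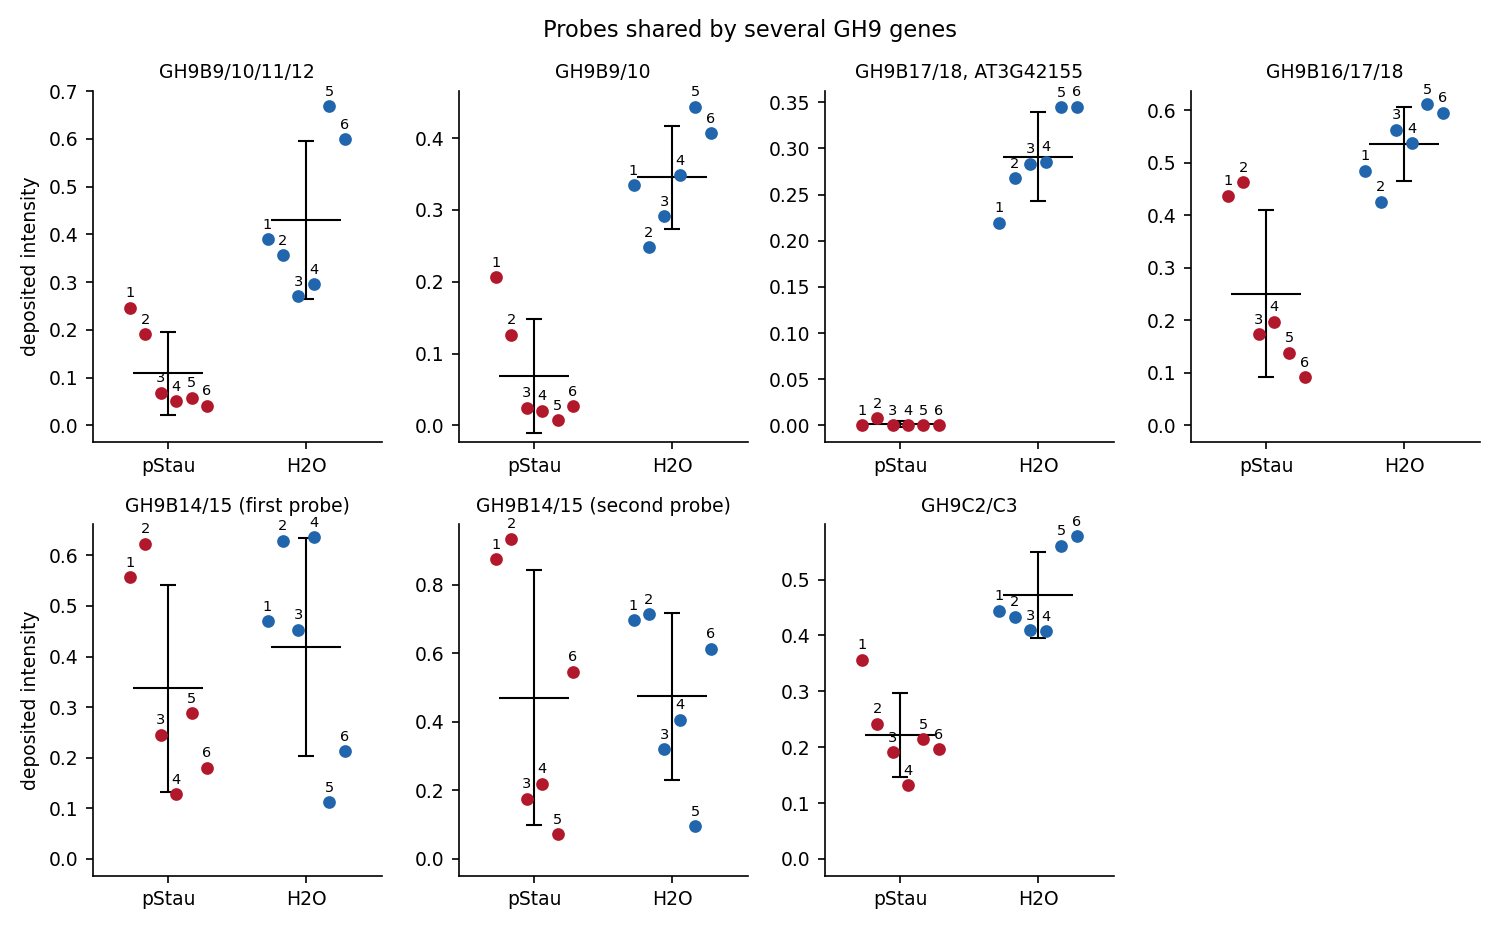
Deposited intensity (vertical axis, a separate range in each panel) of the 7 probes that the annotation pairs with several genes, at least 1 of them of the GH9 family, on 6 pStau arrays (red, left) and 6 H2O arrays (blue, right), with array numbers and the mean ± SD as black bars. The probe of GH9B17, GH9B18 and AT3G42155 is at or near 0 on all pStau arrays, and the GH9B14/15 probes overlap between the groups.

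Of 86 further wall genes in lists of cellulose synthesis, wall loosening, pectin and wall glycosidases, 0 had a probe of their own. A search of RefSeq gene synonyms for wall terms added 1 gene, CSLA01, of the cellulose synthase-like A family, whose enzymes make mannan backbones of the wall. Wall genes without such a synonym could not be found this way. Its deposited intensity was lowest at 0.118, had a median of 0.149 and was highest at 0.289 in pStau, against 0.0758, 0.246 and 0.386 in H2O, so the groups overlapped. CSLA01 did not pass (limma adjusted p = 0.315, log2 change 0.55 with an SE of 0.40, n = 6 each), and its change was -0.40 as deposited and 0.22 without H2O array 1. Blocked by replicate number it passed (limma adjusted p = 0.0395), but not with array sets averaged (0.299) or as a random block (0.750).

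Among genes with a probe of their own above 0 on at least 9 arrays, those most like each GH9B gene were found by Pearson's r of normalized log2 levels over the 12 arrays. These are the highest of 585 or 586 values and are given as a description, since the arrays share their group and set. AT1G01730 and AT3G50880 followed GH9B16 with r = 0.97 and 0.96, and with r = 0.90 and 0.88 once group means were removed. AT4G35660 and AT4G24910 followed GH9B11 (r = 0.94 and 0.93), AT2G13690 and AT4G39690 followed GH9B8 (r = 0.94 and 0.93, with 7 of the 12 GH9B8 values at the floor), and AT5G03370 and AT5G11010 followed GH9B12 (both r = 0.82). Once group means were removed these were 0.90 and 0.87 for GH9B11, 0.88 and 0.86 for GH9B8, and 0.64 and 0.55 for GH9B12. As deposited the r of AT5G03370 and AT5G11010 with GH9B12 was 0.96 and 0.93, and that of AT4G39690 with GH9B8 was 0.71, so the order of likeness between the GH9B genes depended on the scaling. The median r over all candidate genes was 0.21 for GH9B16, 0.15 for GH9B11, 0.12 for GH9B8 and 0.034 for GH9B12.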

How the data were processed

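A single table of deposited array intensities, 1 column for each of the 12 arrays, was used. Background correction, scaling, centring and dyes are not given in the sources used here. Array totals were 3139 to 3541 in pStau and 3054 to 3562 in H2O. Precision is limited by the number of arrays.

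Probe names came from the platform annotation, of an older date, updated with RefSeq TAIR10.1: 692 had 1 gene, 870 several and 1877 none. The highest and lowest array medians differed 2.87-fold, so positive values were quantile normalized. A floor at the 1st percentile of these (0.0167) replaced zeros and lower values before the log2 step, and 183 probes at 0 throughout were dropped. The groups were then compared in limma 3.58.1 (lmFit and eBayes, R 4.3.3), two-sided, with Benjamini-Hochberg adjustment over 3256 probes, at 0.05. Figures used matplotlib 3.10.9.

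The members, lists and settings were chosen with earlier results of these data known. Named were the 4 members, list genes with their own probe, genes found by wall terms in RefSeq synonyms (in place of descriptions) and the 2 genes most like each member. The shared GH9 probes and AT5G15280 were chosen after their values were seen.

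Same-numbered pStau and H2O arrays deviated together from their group means (r from 0.31 to 0.54 in 6 numbers). The reported fit and the permutation tests did not use this pairing, which entered only in the fit with the replicate number as a block. The labels do not state the source of that pairing.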

Additional observations from a re-analysis of the deposited data

Results flagged for a closer look

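CSLA01 stood apart on array 1 in both groups. Its normalized log2 level was -3.12 on pStau array 1 and -1.94 on the nearest other pStau array, which is 0.701 of the whole pStau range. On H2O array 1 it was -4.22, and -2.61 on the nearest other H2O array, which is 0.656 of the H2O range. The second probe shared by GH9B14 and GH9B15 was at -4.46 on H2O array 5 and at -1.85 on the nearest other H2O array, which is 0.718 of the range. Each gap exceeds Dixon's 95% critical value for 6 samples. Chance gives such a gap in about 1 of 20 groups, and 22 groups were looked at. None of the 4 GH9B genes had such an array in a group that could be looked at. GH9B8 in pStau could not be, since all its values there lay at the floor.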

How the results depend on the processing

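GH9B11, GH9B12 and GH9B16 stayed lower in pStau under all 28 limma alternatives run for each, but not all of these could change the direction. Settings that altered only the blocking, the averaging, the variance fit or the probes tested left the log2 change as it was. The floor at the 5th percentile did not change it for these genes either. Fits without 1 array share most of their arrays with the reported fit. With its pStau values at 0 the direction of GH9B8 was fixed. GH9B8 was not tested with only probes above 0 on all arrays or with the dimmest 25% of probes left out. The call held in 25 of the 28 alternatives for GH9B16, 24 for GH9B12 and 14 for GH9B11, and in 21 of 26 for GH9B8. Averaging consecutive arrays left 3 probes past the threshold in limma (876 at an unadjusted p under 0.05) and ended the calls of GH9B11 (-0.61, adjusted p = 0.264), GH9B12 (-0.53, 0.208), GH9B16 (-0.68, 0.144) and GH9B8 (adjusted p = 0.190). The random block left 524 probes and ended the calls of GH9B11 (-0.61), GH9B12 (-0.53) and GH9B8 (0.0811). With the replicate block 1279 probes passed and the call of GH9B11 ended (-0.61), that of no other member. Without arrays 3 and 4 of both groups 483 probes passed, and the calls of GH9B11 (-0.76, adjusted p = 0.0994), GH9B16 (-0.48) and GH9B8 (0.135) ended. Without arrays 5 and 6 506 probes passed, and the calls of GH9B11 (-0.16), GH9B12 (-0.50), GH9B16 (-0.61) and GH9B8 (0.134) ended. Without arrays 1 and 2 that of GH9B12 (-0.38) ended. GH9B11 also lost its call with arrays centred on their median (-0.50) or zeros ranked (-0.56, adjusted p = 0.0523), and GH9B8 with the higher floor (0.252). With 1 array left out, the log2 change ranged from -0.69 to -0.50 for GH9B11, -0.59 to -0.44 for GH9B12 and -0.77 to -0.59 for GH9B16, and the adjusted p of GH9B8 from 0.00604 to 0.0447. Arrays scaled to the same total gave 1808 probes, 180 higher and 1628 lower, against 1148 probes, 536 higher and 612 lower. As deposited the split was 183 and 1519, and centred on the median 915 and 487. CSLA01 reversed to -0.40 as deposited and -0.41 with the same total, and passed with the replicate block and without arrays 1 and 2, which gave 1 wall gene past the threshold in place of 0. The shared GH9B14 and GH9B15 probes reversed to -0.31 and -0.27 as deposited and -0.32 and -0.28 with the same total, and the first to -0.061 without arrays 5 and 6. The ratio differences, none of them past the threshold, changed sign with normalized levels: 0.075 for GH9B12 to GH9B11, 0.14 for GH9B12 to GH9B16 and -0.068 for GH9B16 to GH9B11. Without arrays 1 and 2 the ratio of GH9B12 to GH9B11 was 0.37 and that of GH9B12 to GH9B16 0.25. Without arrays 5 and 6 the ratio of GH9B16 to GH9B11 was -0.36, and that of GH9B12 to GH9B11 was -0.42 (exact unadjusted p = 0.0286, the smallest that 4 against 4 arrays allow). The cause of these changes was not tested.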
